A study of Mus musculus with 49 samples.

Results

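The core circadian clock genes are the 10 genes Arntl (also called Bmal1), Clock, Npas2, Per1, Per2, Per3, Cry1, Nr1d1, Nr1d2 and Dbp, taken by gene symbol from the annotation of a custom Affymetrix array. They were 10 of the 21517 genes named on the array and 15 of its 43681 probe sets. Arntl, Clock, Per2 and Per3 had several probe sets, of which the brightest on average across the 49 arrays stands for the gene. RNA of mouse liver (strain FVB) was measured in a model in which the receptor MET drives hepatocellular carcinoma. The study compared TRE-MET with LAP-tTA livers to find genes that differ with MET before tumors appear, and kept mice to 14 weeks to see that tumors form. The groups were TRE-MET livers at 6 weeks (7 mice, genotype label Tre-c-Met), LAP-tTA livers at 7 weeks (7 mice), 14 tumors and 7 adjacent and 7 distant livers from 7 mice of 14 weeks labelled LAP-tTA-Tre-c-Met, and livers of 7 FVB-WT mice at 14 weeks.

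In the study's methods the LAP promoter, active in liver, drives a transactivator that the TRE-MET strain carries together with the human MET transgene. LAP-tTA mice carry the transactivator alone. They have more copies of it than the TRE-MET strain by the methods, so its copy number also differs between these groups. The methods name LAP-tTA mice also as the controls at 14 weeks, but the labels call those mice FVB-WT, and the labels are followed here. The title of TRE-MET sample 1 says 6 weeks, but its age is entered as 14 weeks. Adjacent and distant are read from the abbreviations ad and dis. The time of day of collection, feeding state and array batch are not given in the sources used here, so none of them could be compared between groups. Values are log2 of the deposited intensity, and a probe set was called at a Benjamini-Hochberg adjusted p under 0.05 by limma, over all probe sets. All 9 hepatocyte markers lay above the median probe set in each group, and their summed intensity was 409 to 465 in TRE-MET livers, 434 to 456 in LAP-tTA livers, 212 to 383 in tumors, 423 to 480 in adjacent livers, 443 to 468 in distant livers and 414 to 466.2 in FVB-WT livers. Tumor 1b of mouse 1 stood apart from the other 13 tumors, with the lowest hepatocyte sum (211.5) and the highest sums of stellate cell and fibroblast (239.8 against 16.6 to 64.8), cholangiocyte (28.2 against 0.865 to 7.98), neutrophil (11.04 against 1.01 to 1.87) and erythroid markers (15.5 against 0.860 to 2.29). In bulk tissue, fewer cells of a type and less RNA per cell cannot be told apart.

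The clock is a feedback loop of transcription. BMAL1, the product of Arntl, pairs with CLOCK or NPAS2, binds E-boxes and turns on the Per and Cry genes, Nr1d1, Nr1d2 and Dbp. PER and CRY proteins then hold BMAL1 and its partner back, and REV-ERBα and REV-ERBβ (Nr1d1 and Nr1d2) repress Arntl through ROR elements. DBP is an output factor that activates genes through D-boxes. In liver these transcripts rise and fall with the time of day, Arntl against the Per genes, and meal times can shift them.

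These elements could be read in promoter windows of RefSeq (GRCm38.p6, 300 bases around each start), which matched 9 of the 10 genes. The letters searched on both strands were CACGTG for the E-box, TTATGTAA for the D-box, and both forms of the ROR element (an A/T-rich stretch before AGGTCA or GGGTCA). An E-box stood in 7.15% of all 32851 windows, a D-box in 0.938% and a ROR element in 0.435%. Windows of 4 clock genes held one, and these stretches are shown because they carry the elements by which the loop's arms are named. The Arntl stretch is chr7:113207528-113207557 (plus strand) with the ROR element at 28 from the start. The Cry1 stretch is chr10:85185079-85185144 (minus strand) with the E-box at -60. The Per1 stretch is chr11:69098753-69098818 (plus strand) with the E-box at -166. The Per3 stretch is chr4:151044786-151044900 (minus strand) with D-boxes at -205 and -158. Each is written 5′ to 3′ with the element in capitals.
Arntl: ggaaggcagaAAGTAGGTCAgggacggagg
Cry1: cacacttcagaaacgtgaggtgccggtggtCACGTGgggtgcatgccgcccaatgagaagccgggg
Per1: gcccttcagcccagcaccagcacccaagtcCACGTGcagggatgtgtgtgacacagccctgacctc
Per3: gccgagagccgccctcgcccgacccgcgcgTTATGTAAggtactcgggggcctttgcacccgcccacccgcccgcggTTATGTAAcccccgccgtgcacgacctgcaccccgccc
The windows of Clock, Npas2, Nr1d1, Nr1d2 and Dbp did not hold these letters. A match is a run of letters and not a measured binding site.

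Arntl and Dbp spread widely among mice of most groups, LAP-tTA livers being the exception. Arntl, the activator, ranged from -2.38 to 0.31 in TRE-MET livers (median -0.06) and from -1.59 to -0.91 in LAP-tTA livers (median -1.31). It ranged from -2.99 to 0.01 in tumors (median -1.94), from -3.23 to -0.03 in adjacent livers (median -2.55), from -3.14 to -0.27 in distant livers (median -2.49) and from -3.34 to -0.06 in FVB-WT livers (median -0.28). All groups overlapped, and LAP-tTA livers lay within the range of every other group. Dbp, the output factor, ranged from -3.17 to 2.27 in TRE-MET livers (median -1.75) and from 0.83 to 1.29 in LAP-tTA livers (median 1.11). It ranged from -1.41 to 2.53 in tumors (median 1.76), from 0.36 to 2.85 in adjacent livers (median 2.47), from 0.78 to 2.76 in distant livers (median 2.38) and from 0.22 to 2.91 in FVB-WT livers (median 0.42). The range of Dbp among TRE-MET livers was 43.4-fold. Its SD there, 2.50, was rank 7 among the 21517 genes, and its SD in LAP-tTA livers, 0.154, was rank 9277. Not every clock gene varied little among LAP-tTA livers. The SD there was rank 104 for Per2, 235 for Cry1 and 1241 for Arntl, and between 3553 and 17119 for the rest.

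**Figure D1:**
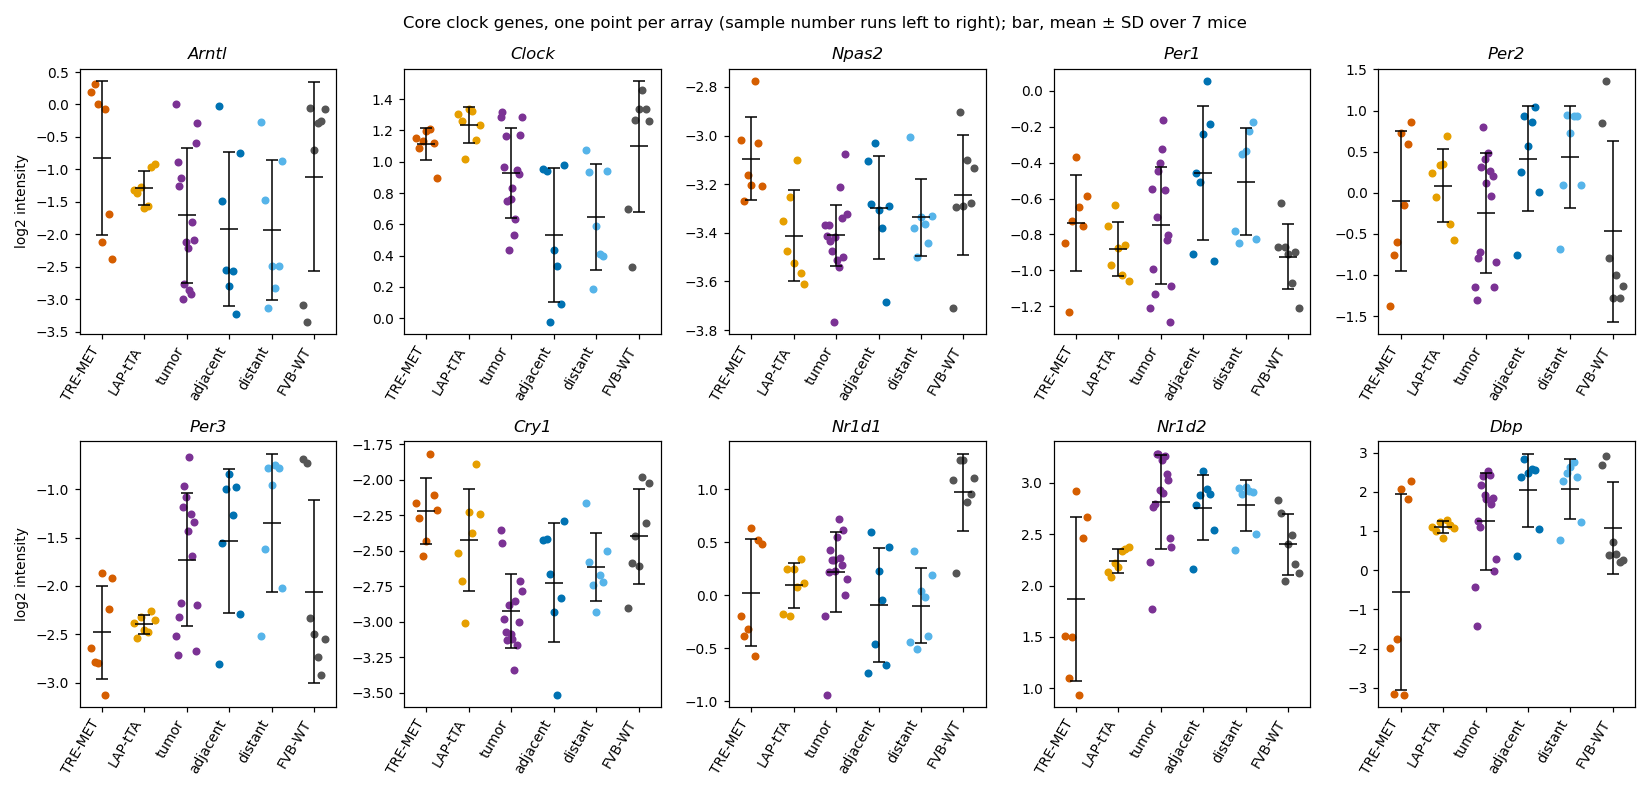
Log2 intensity of the 10 core clock genes (y axis) in every array, by group (x axis). The bar is the mean ± SD over 7 mice, with both tumors of a mouse averaged for it. LAP-tTA livers kept together in Dbp (0.83 to 1.29), and TRE-MET livers spread from -3.17 to 2.27.

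Within groups several of these genes were high or low in the same mice. In TRE-MET livers, samples 1, 2, 3 and 5 had Arntl at 0.19, 0.31, 0.01 and -0.06, against -2.12, -1.69 and -2.38 in samples 4, 6 and 7. Dbp in samples 1, 2, 3 and 5 was -1.97, -3.16, -1.75 and -3.17, against 2.08, 1.82 and 2.27 in samples 4, 6 and 7. Per2, Per3, Nr1d1 and Nr1d2 were likewise lower in each of samples 1, 2, 3 and 5 than in each of samples 4, 6 and 7. Nr1d2, the partner of Nr1d1 in repressing Arntl, was for example between 0.94 and 1.51 in samples 1, 2, 3 and 5, and between 2.46 and 2.93 in samples 4, 6 and 7. Clock, Npas2, Per1 and Cry1 overlapped between these samples. The summed intensity of the 8 acute phase markers moved with this split. It was 503 to 595 in samples 1, 2, 3 and 5 and 183 to 226 in samples 4, 6 and 7. In LAP-tTA livers it was 179 to 257. Hp and Fgb were the brightest of these markers (means 6.21 and 6.43 over the 49 arrays), so few genes can carry this sum. In TRE-MET against LAP-tTA livers 4 of the 8 were called higher and 0 lower, against 6.86% of all probe sets called. Summed neutrophil markers (9 measured, 6 of them above the median probe set) were 5.06 to 10.7 in samples 1, 2, 3 and 5 and 1.12 to 1.23 in samples 4, 6 and 7, against 1.10 to 1.39 in LAP-tTA livers. Kupffer cell markers (6 measured) summed to 11.6 to 14.1 in samples 1, 2, 3 and 5 and to 7.74 to 8.88 in samples 4, 6 and 7, against 7.93 to 10.7 in LAP-tTA livers. The part of these cells or of the acute phase in the clock gene values was not tested.

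In FVB-WT livers, samples 1 and 2 stood apart from samples 3 to 7. Arntl was -3.09 and -3.34 in samples 1 and 2 and between -0.69 and -0.06 in the other 5. Dbp was 2.67 and 2.91 in samples 1 and 2 and between 0.22 and 0.73 in the others, and Per3, a repressor gene of the loop, was -0.68 and -0.73 against -2.92 to -2.33. Here the acute phase and neutrophil sums were in a narrow range (163 to 186 and 1.18 to 1.46). The sum of pancreas acinar markers (5 measured) split with the clock genes, at 3.21 and 4.54 in samples 1 and 2 and 8.41 to 39.2 in the other 5. Cela1 was the brightest of these markers (mean 2.679 over the 49 arrays, the others -2.885 to -1.249), so 1 gene can carry this sum. Hepatocyte sums were 432.8 and 413.8 in samples 1 and 2 and 433.3 to 466.2 in the other 5, and sums of sinusoidal endothelium (13.05 and 15.1, the others 11.5 to 12.6) and stellate cell markers (28.4 and 29.8, the others 22.65 to 27.5) were higher. Their part was not tested. In the MET mice at 14 weeks, the distant livers of mice 3 to 6 had low Arntl (-3.14, -2.49, -2.82 and -2.49) and high Dbp (2.47, 2.63, 2.76 and 2.38). Mice 1 and 7 had the reverse, with Arntl at -0.27 and -0.87 and Dbp at 0.78 and 1.24, and mouse 2 had Arntl between them at -1.47. Acute phase sums of distant livers were highest in mice 5 and 1 (298 and 297), of which mouse 1 had the highest and mouse 5 a low Arntl. Pancreas acinar sums were 2.70 to 3.77 in distant livers 3 to 6 and 5.64 to 8.17 in distant livers 1, 2 and 7, and erythroid sums were 1.65 to 2.35 and 2.54 to 3.36, and their part was not tested.

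**Figure D2:**
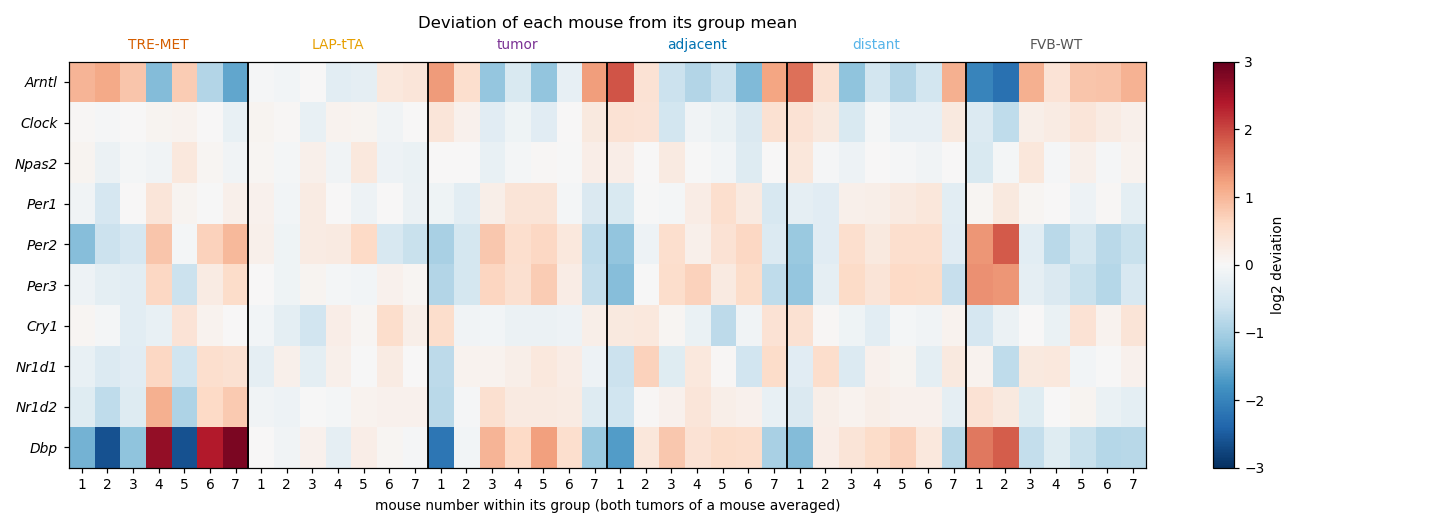
Deviation of each mouse from its group mean in log2 intensity (colour) for the 10 genes (rows) and 42 tissue units (columns, 7 mice in each group, both tumors of a mouse averaged). Arntl is red where Dbp, Per2 and Per3 are blue and the reverse, and most cells of LAP-tTA livers are pale.

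The relation of each gene to Arntl within a group was measured over its 7 mice, with exact two-sided permutation p-values adjusted over 29 relations. No coefficient is given where values fell into separate clusters, which was so for every gene in TRE-MET and FVB-WT livers, for Nr1d1 in tumors, for Clock and Dbp in adjacent livers and for Npas2, Per1, Nr1d2 and Dbp in distant livers. Per3 ran opposite to Arntl in tumors (Pearson r = -0.983, Spearman rho = -1, adjusted exact permutation p = 0.0038 for both), in adjacent livers (r = -0.970, rho = -0.929, adjusted p = 0.0099 and 0.028, exact) and in distant livers (r = -0.984, rho = -0.929, adjusted p = 0.010 and 0.028, exact). Per2, whose protein is a main inhibitor of BMAL1, did the same, with r of -0.975, -0.954 and -0.962 in tumors, adjacent and distant livers (rho -0.964, -0.857 and -0.857; adjusted exact permutation p of r 0.0069, 0.010 and 0.013, of rho 0.016, 0.058 and 0.058). Without the 2 mice farthest from the median of Arntl, r of Per2 was -0.937, -0.832 and -0.934. Dbp and Nr1d2 ran opposite to Arntl in tumors (r = -0.941 and -0.914, rho = -1 and -0.964, adjusted exact permutation p of r 0.0038 and 0.0058, of rho 0.0038 and 0.016), and Nr1d2 did so in adjacent livers (r = -0.914, rho = -0.893, adjusted exact permutation p = 0.015 and 0.040). That last relation rests on 2 mice, since r was -0.542 without those farthest from the median.

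Clock, the partner of BMAL1, ran with Arntl in tumors (r = 0.991, rho = 1, adjusted exact permutation p = 0.0038 for both) and in distant livers (r = 0.957, rho = 0.893, adjusted exact permutation p = 0.0099 and 0.040). Cry1, the other arm of repression, ran with Arntl in distant livers by r (0.849, adjusted exact permutation p = 0.032) but not by rho (0.821, adjusted p = 0.062, exact). Without 2 mice its r was 0.442. In tumors Cry1 had r = 0.770 and rho = 0.714 (adjusted exact permutation p = 0.070 and 0.13), and Per1 had r = -0.833 and rho = -0.857 (adjusted exact permutation p = 0.051 and 0.058). Per1 in adjacent livers had r = -0.859 and rho = -0.821 (adjusted exact permutation p = 0.044 and 0.062), and r = -0.460 without 2 mice. In LAP-tTA livers, where Arntl varied least, 1 of 9 relations passed. It was Per2 (r = -0.901, rho = -0.821, adjusted exact permutation p = 0.040 and 0.062; r = -0.556 without 2 mice). Clock and Per3 had the opposite sign there from tumors and distant livers, Clock with r = -0.515 and rho = -0.821 (adjusted exact permutation p = 0.29 and 0.062) and Per3 with r = 0.745 and rho = 0.750 (adjusted exact permutation p = 0.091 and 0.11).

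Nr1d1, which shares its role with Nr1d2, had no relation to Arntl that passed in the groups where it could be tested. Its r to Arntl was 0.214 in distant livers (rho = 0.321, adjusted exact permutation p = 0.71 and 0.60; r = 0.828 without 2 mice) and 0.105 in adjacent livers (rho = 0.0714, adjusted exact permutation p = 0.85 and 0.94; r = 0.793 without 2 mice). In distant livers Nr1d1 was lowest in mice 3, 1 and 6 (-0.51, -0.44 and -0.38), which held both the highest and the lowest Arntl, and highest in mouse 2 (0.42), which lay between. As a description over the 42 units, the first 2 principal components of the 10 genes held 62.6% and 15.1% of the variance of scaled deviations. In their plane the angle from Arntl was -3.98 degrees for Npas2, 13.1 for Cry1 and 26.5 for Clock. It was 100.2 degrees for Nr1d1, 148 for Nr1d2, 155 for Dbp, -169 for Per1, -177 for Per3 and -178 for Per2. Nr1d1 was the gene nearest to a right angle from Arntl, but its angle was 153 degrees over the young mice, 62.5 over FVB-WT and distant livers and 140 over tumors. Angles in this plane are an order of co-variation and not clock times, and units of the same mouse are not independent.

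**Figure D3:**
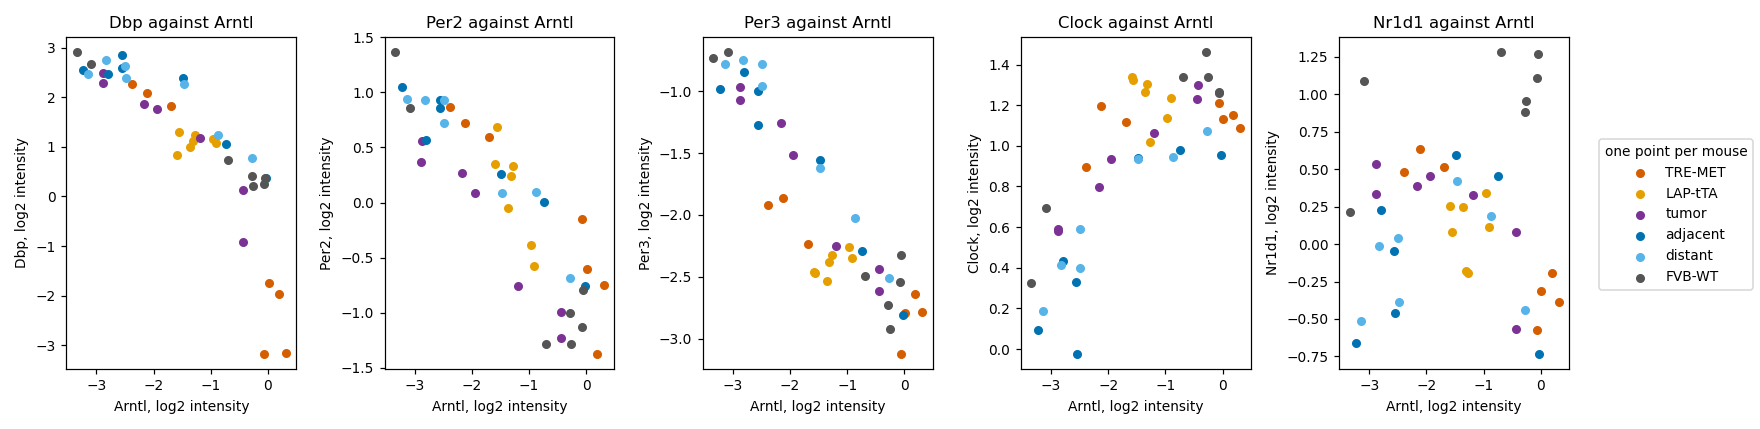
Log2 intensity of Dbp, Per2, Per3, Clock and Nr1d1 (y axes) against Arntl (x axes), 1 point per mouse and group. Dbp, Per2 and Per3 fall as Arntl rises in most groups, and Nr1d1 of FVB-WT livers (0.21 to 1.28) lies above most other points.

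Tissues of the same mouse ran together by Pearson r in 9 of the 10 relations that could be tested, and in fewer by rho. Arntl in tumors ran with Arntl in distant livers over the 7 mice (r = 0.972, rho = 0.964, adjusted exact permutation p = 0.0089 and 0.014 over 10 relations), as did Per3 (r = 0.948, rho = 0.964), Per2 (r = 0.940, rho = 0.857), Cry1 (r = 0.915, rho = 0.750) and Clock (r = 0.905, rho = 0.821). The adjusted exact permutation p of r was 0.0089 for Per3 and 0.013 for Per2, Cry1 and Clock, and rho of Cry1 and Clock did not pass (0.095 and 0.057, exact). Adjacent livers ran with distant livers for Per2 (r = 0.984, rho = 0.929), Nr1d1 (r = 0.960, rho = 0.893), Per3 (r = 0.956, rho = 0.643) and Arntl (r = 0.931, rho = 0.643), with adjusted exact permutation p of r from 0.0089 to 0.014. The rank correlation did not pass for Per3 and Arntl (adjusted p = 0.14 for both, exact), and Cry1 passed by neither measure (r = 0.509, rho = 0.643, adjusted exact permutation p = 0.20 and 0.14). Without the 2 mice farthest from the distant median, r in adjacent livers was 0.675 for Arntl, 0.719 for Per3, 0.976 for Per2 and 0.993 for Nr1d1. In tumors it ran from 0.752 (Cry1) to 0.956 (Arntl). The other 10 relations had separate clusters. The intraclass correlation of the tumor pairs was 0.945 for Dbp, 0.932 for Arntl, 0.927 for Per2, 0.868 for Per3, 0.865 for Clock, 0.859 for Nr1d2, 0.695 for Cry1, 0.611 for Per1, 0.608 for Nr1d1 and 0.194 for Npas2, the alternative partner of BMAL1, whose signal (-3.77 to -2.77 over all arrays) lay near the median of all probe sets (-3.29). The tumors of mouse 1, tumor 1b among them, differed by 0.996 in Dbp, 0.895 in Arntl, 0.739 in Nr1d1 and 0.659 in Per1, the largest differences of these genes within a mouse.

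In tumors, Clock rose and Per1, Per2, Per3, Cry1 and Dbp fell relative to the distant liver of the same mouse (limma with mouse as a block). Dbp was lower in 7 of 7 mice, by 1.69, 1.09, 0.19, 0.77, 0.28, 0.62 and 1.10 in mice 1 to 7 (log2 difference -0.82 ± 0.16 SE, adjusted p = 0.0031). Per2 was lower in 7 of 7 mice, by 0.38 to 1.09 (-0.68 ± 0.09 SE, adjusted p = 0.00027). These were the largest of the called differences among the 10 genes. Per3 (-0.38 ± 0.08 SE, adjusted p = 0.0057), Cry1 (-0.31 ± 0.06 SE, adjusted p = 0.0030) and Per1 (-0.24 ± 0.08 SE, adjusted p = 0.041) were lower in 7 of 7 mice each, and Clock was higher in 7 of 7 (0.28 ± 0.07 SE, adjusted p = 0.0093). Arntl was higher in 5 of 7 mice (0.23 ± 0.09 SE, adjusted p = 0.078) and Nr1d1 in 4 of 7 (0.32 ± 0.14 SE, adjusted p = 0.11), and neither passed. Nr1d2 differed by 0.03 (95% interval -0.16 to 0.22) and Npas2 by -0.07 (-0.23 to 0.08).

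So 6 of 10 were called, 1 of them higher and 5 lower, against 26.6% of all probe sets (13.5% higher and 13.1% lower). The median difference of the 10 genes was -0.16, that of all probe sets -0.05. Groups of these genes overlapped widely between tumors and distant livers. With no mouse block 0 of the 6 calls was left (adjusted p from 0.077 for Cry1 to 0.42 for Per3), while 27% of all probe sets were called. Per1 was not called when mouse 2, 3, 6 or 7 was left out (highest adjusted p = 0.10), and its call was also lost with sample medians set equal (adjusted p = 0.059). The next brightest probe set of Per3 gave 0.09 and that of Clock 0.20 (adjusted p = 0.29 and 0.16), the third probe set of Clock gave -0.06 (adjusted p = 0.56), and the next of Per2 gave -0.39 (adjusted p = 0.0047). The next of Arntl had the opposite sign from its brightest, at -0.14 (limma, adjusted p = 0.25). Hepatocyte markers were also lower in tumors, with 6 of 9 called, as were 5 of 6 Kupffer cell markers. Of 5 sinusoidal endothelium markers 3 were called lower and 1 higher, and 5 of 5 measured proliferation markers were higher. Summed stellate cell and fibroblast markers had a median of 44.0 in tumors and 17.9 in distant livers (4 of 7 called higher, 2 lower). Median sums of pancreas acinar markers were 20.7 and 3.77, with 2 of 5 called higher, 1 lower and a median log2 difference of -0.07. Those of cholangiocyte markers were 2.69 and 1.31 (3 of 6 called higher, 0 lower). Their part in the clock gene differences was not tested. Tumor 1b had the lowest Dbp of the tumors (-1.41). Without mouse 1, 7 of 10 genes were called, the 6 and Arntl, against 23.8% of all probe sets. The same 7 were called, against 22.4%, with tumor a of each mouse alone, which leaves out tumor 1b (Dbp -0.77, adjusted p = 0.00091). With tumor b alone the call of Per1 was lost (adjusted p = 0.20).

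**Figure D4:**
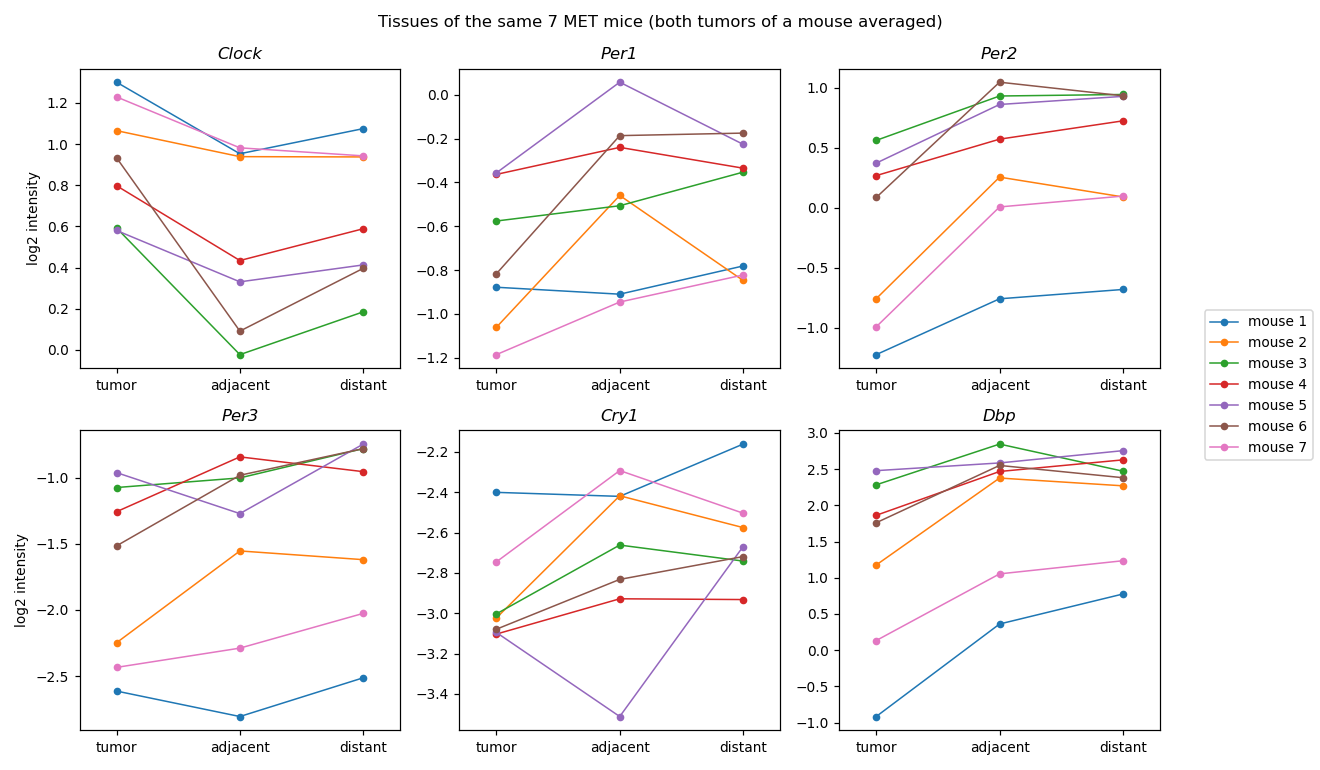
Log2 intensity (y axis) of the 6 genes called between tumors and distant livers, in tumor, adjacent and distant liver of the same 7 mice (x axis; lines join a mouse, both tumors averaged). Clock lies higher and the other 5 lower in the tumor than in distant liver in 7 of 7 mice, and mouse 1 is lowest in Dbp in each tissue.

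Against adjacent liver of the same mouse, 4 of 10 genes were called, 1 higher and 3 lower, against 32.8% of all probe sets (12.7% higher and 20.1% lower). Clock was higher in 7 of 7 mice (0.40 ± 0.09 SE, adjusted p = 0.0077), Per2 lower in 7 of 7 (-0.66 ± 0.11 SE, adjusted p = 0.0014), Dbp lower in 7 of 7 (-0.78 ± 0.13 SE, adjusted p = 0.0015) and Per1 lower in 6 of 7 (-0.29 ± 0.09 SE, adjusted p = 0.034). These comparisons share the tumors with those against distant liver. Without the mouse block 0 of the 10 was called here too, against 36.2% of all probe sets. Clock was not called at its other probe sets (0.22 and 0.01, adjusted p = 0.14 and 0.91), and Per1 was not called when mouse 2, 5, 6 or 7 was left out (highest adjusted p = 0.093) or with sample medians set equal (adjusted p = 0.15). Between adjacent and distant livers of a mouse, 0 of 10 clock genes were called by limma, against 0% of all probe sets (0% higher, 0% lower). At an unadjusted p under 0.05 there was 1 gene (Per3, -0.19, 95% interval -0.36 to -0.02) and 13.3% of probe sets, and the test of the study's methods called 0 of the 10. The 95% interval of Dbp was -0.23 to 0.15 and that of Arntl -0.24 to 0.29.

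Nr1d1 was lower in all 3 tissues of the MET mice than in FVB-WT livers. By the labels these mice differ from FVB-WT mice in the transactivator as well as in MET. The parts of the transactivator and of MET cannot be told apart in any comparison with FVB-WT livers. In distant livers it was -0.51 at the lowest, -0.02 at the median and 0.42 at the highest, against 0.21, 1.09 and 1.28 in FVB-WT livers. FVB-WT sample 2, at 0.21, was the only FVB-WT liver inside the distant range. The difference was -1.07 ± 0.17 SE in distant livers (limma, adjusted p = 0.00068), -1.06 ± 0.21 SE in adjacent livers (adjusted p = 0.0049) and -0.75 ± 0.18 SE in tumors (adjusted p = 0.0040). It was called in each of 14 fits that left out 1 mouse, in each of the 3 comparisons. The 3 comparisons share the FVB-WT mice. Group means of Nr1d1 were 0.22 ± 0.38 in tumors, -0.09 ± 0.54 in adjacent, -0.10 ± 0.35 in distant, 0.02 ± 0.50 in TRE-MET, 0.09 ± 0.21 in LAP-tTA and 0.97 ± 0.37 in FVB-WT livers (SD, n = 7 mice each). The 5 groups other than FVB-WT lay within each other's SD.

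Distant livers had 1 of 10 genes called, lower, against 5.06% of all probe sets (2.47% higher and 2.6% lower). Adjacent livers had 2 called, 1 higher and 1 lower, against 7% (3.85% higher and 3.15% lower), the other being Per1 (0.47 ± 0.14 SE, adjusted p = 0.0495). Per1 was called in 3 of 14 fits that left out 1 mouse, those without adjacent liver 1 or 7 or FVB-WT sample 2 (highest adjusted p of the 14 0.11), and its adjusted p was 0.10 with sample medians set equal and 0.066 with a replicate block. In distant livers its difference was 0.42 ± 0.12 SE (adjusted p = 0.051), and it was called in 4 of 14 such fits. Tumors had 2 called, both lower, against 29.2% (13.4% higher and 15.8% lower), the other being Cry1 (-0.52 ± 0.14 SE, adjusted p = 0.011), which was called in 14 of 14 such fits. Cry1 was -3.34 at the lowest, -2.99 at the median and -2.36 at the highest in tumors, against -2.91, -2.39 and -1.98 in FVB-WT livers.

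Dbp, Per2 and Arntl were not called in these comparisons. At an unadjusted p under 0.05 there were 6 of the 10 genes in distant livers (17.9% of probe sets), 5 in adjacent livers (21.9%) and 3 in tumors (39.8%). Dbp differed by 0.99 (95% interval 0.07 to 1.91, adjusted p = 0.24) between distant and FVB-WT livers and by 0.17 (-1.01 to 1.35, adjusted p = 0.85) between tumors and FVB-WT livers. Per2 differed by 0.90 (0.07 to 1.73, adjusted p = 0.23) and Arntl by -0.82 (-2.01 to 0.36, adjusted p = 0.50) between distant and FVB-WT livers. Without FVB-WT sample 2, 4 of 10 genes were called in distant and 4 in adjacent livers (Per1 and Per2 higher, Clock and Nr1d1 lower in both). The shares of all probe sets called were then 5.85% and 6.67%. Without distant liver 1 there were 3 (4.76% of all probe sets). Without distant liver 2 or 7 or FVB-WT sample 1 there were 2 (5.25%, 5.42% and 5.16%). Per2 of the tumors differed by 0.23 (adjusted p = 0.73) at its brightest probe set and by -0.40 (adjusted p = 0.0073) at the next brightest. Arntl of the tumors differed by -0.59 (limma, adjusted p = 0.48) at its brightest probe set and by -0.19 (adjusted p = 0.049) at the next. Distant and FVB-WT livers also differed in marker lists, against 5.06% of all probe sets called. Of 7 stellate cell and fibroblast markers, 5 were called lower and 0 higher (median log2 difference -0.52). Of 9 neutrophil markers, 3 were called, all higher (summed 1.57 to 3.44 against 1.18 to 1.46). Of 8 acute phase markers, 2 were called higher and 0 lower (193 to 298 against 163 to 186). Their part was not tested.

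In TRE-MET against LAP-tTA livers, 1 of 10 genes was called, higher, against 6.86% of all probe sets (3.26% higher and 3.6% lower). It was Npas2 (-3.27 at the lowest, -3.16 at the median and -2.77 at the highest in TRE-MET livers, against -3.61, -3.47 and -3.10 in LAP-tTA livers). The difference was 0.32 ± 0.09 SE (limma, adjusted p = 0.041). The call was lost without TRE-MET sample 1, 3, 5 or 6 or LAP-tTA sample 1, 2, 4, 6 or 7 (highest adjusted p = 0.0905), and with sample medians set equal (adjusted p = 0.052). The largest difference was that of Dbp, -1.65 (95% interval -3.23 to -0.08, adjusted p = 0.24), over TRE-MET livers that lay on both sides of the LAP-tTA livers: 4 below and 3 above all of them. Arntl (0.46, -0.31 to 1.23), Per2 (-0.18, -0.80 to 0.43) and Per3 (-0.08, -0.41 to 0.24) had adjusted p from 0.58 to 0.85. No gene of the 10 separated its groups in any comparison between different mice, against 3.17% of all probe sets without overlap in TRE-MET against LAP-tTA livers, 1.93% in distant, 2.15% in adjacent liver and 6.85% in tumors against FVB-WT livers.

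The difference of differences between the ages, TRE-MET less LAP-tTA minus distant less FVB-WT, was called for 1 of 10 genes, higher, against 7.73% of all probe sets (3.86% higher and 3.87% lower). It was Nr1d1 (0.999 ± 0.26 SE, adjusted p = 0.011), called in 28 of 28 fits that left out 1 mouse. Nr1d1 differed by -0.07 (95% interval -0.43 to 0.29) in the young livers and by -1.07 (-1.42 to -0.72) in distant livers. The genotypes of the controls also differ between the ages by the labels, so age and control strain cannot be told apart. For Dbp the same difference was -2.64 (-4.62 to -0.67, adjusted p = 0.098) and did not pass. It was called without TRE-MET sample 4, 6 or 7 (lowest adjusted p = 0.028).

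**Figure D5:**
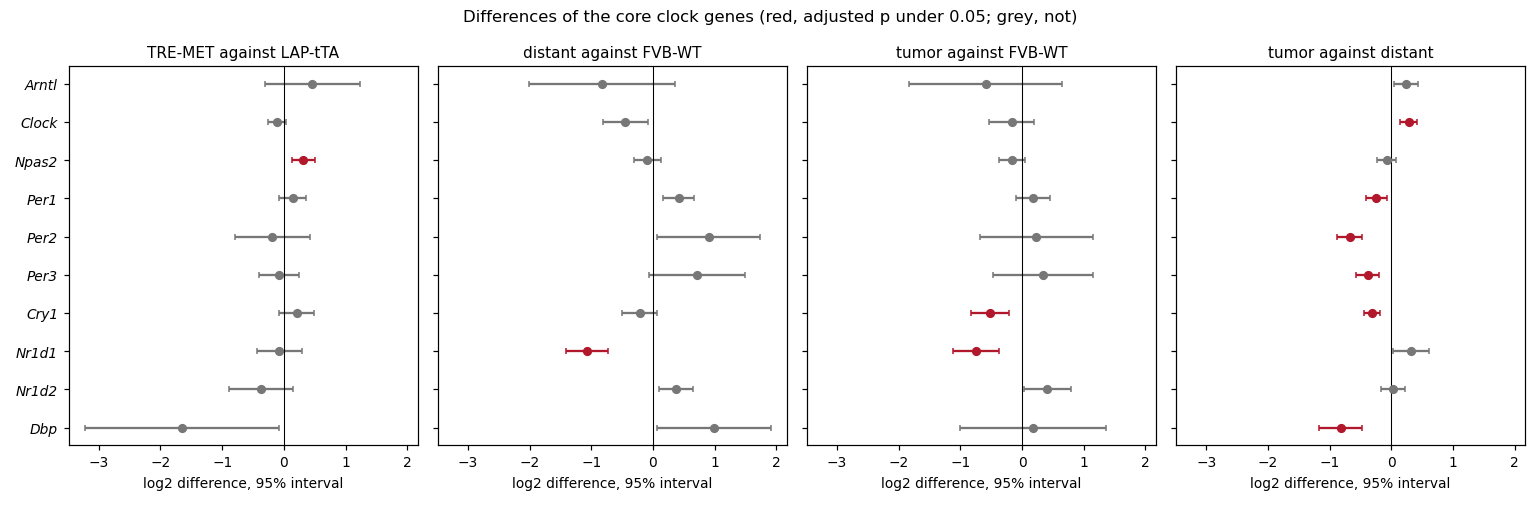
Log2 difference (x axis) of the 10 genes (y axis) in 4 comparisons, with 95% intervals from limma; red points had an adjusted p under 0.05. Intervals of Dbp and Arntl are wide between different mice (Dbp -3.23 to -0.08 in TRE-MET against LAP-tTA) and narrow within mice (-1.17 to -0.47 in tumor against distant).

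Other clock factors, a list of 16 genes of which 14 were measured, differed in how far they ran with the 10 genes from mouse to mouse. Over the 42 units, as a description, the correlation of deviations with Dbp was 0.959 for Tef, a relative of Dbp that binds the same D-boxes, and -0.898 for Nfil3, the repressor at those boxes. With Arntl it was 0.925 for Nfil3, -0.925 for Ciart, an inhibitor of BMAL1, and -0.949 for Usp2, a deubiquitinase, which was the most negative of all 21517 genes. It was weak for Btrc (0.106 with Arntl and -0.179 with Dbp), Csnk1d (0.196 and -0.315), Csnk1e (-0.254 and 0.113), Bhlhe41 (0.395 and -0.259) and Gsk3b (0.424 and -0.251). These deviations were not scaled within groups, so groups with a wide spread weigh most. The widest were TRE-MET livers for Dbp (SD 2.50) and FVB-WT livers for Arntl (SD 1.45). In both of these groups the values fell into separate clusters. In tumors against distant livers, 3 of the 14 rose and 4 fell (median -0.05), against 13.5% of all probe sets higher and 13.1% lower. Gsk3b (0.58 ± 0.07 SE, adjusted p = 0.00010) and Csnk1d (0.42 ± 0.06 SE, adjusted p = 0.00037), kinases that act on PER proteins, rose. Nfil3 (-0.61 ± 0.07 SE, adjusted p = 0.00013) and Tef (-0.56 ± 0.07 SE, adjusted p = 0.00023) both fell, although they ran opposite to each other between mice.

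Against FVB-WT livers, 4 of the 14 rose and 1 fell in tumors (median 0.15), against 13.4% of all probe sets higher and 15.8% lower. The 4 with the smallest p all rose, Csnk1d by 0.38, Timeless by 0.58, Gsk3b by 0.37 and Csnk1e by 0.57 (adjusted p from 0.00016 to 0.0019). Timeless, which in mammals works at replication forks, was the 1 gene of the list called in distant livers (0.39 ± 0.08 SE, adjusted p = 0.0055), with 0 of the 14 lower, against 5.06% of all probe sets in either direction. In TRE-MET against LAP-tTA livers 2 of the 14 rose and 0 fell, against 6.86% of all probe sets in either direction. These were Csnk1e (0.34 ± 0.09 SE, adjusted p = 0.021) and Rora (0.35 ± 0.10 SE, adjusted p = 0.036), the activating receptor at ROR elements. The median of the list was 0.00085 in TRE-MET against LAP-tTA livers and 0.15 in distant against FVB-WT livers.

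Of 13 clock-controlled outputs of liver, 11 were measured. In tumors against distant livers 5 rose and 3 fell (median 0.34), against 26.6% of all probe sets called. Cyp7a1, the rate-limiting enzyme of bile acid synthesis, rose by 2.60 ± 0.22 SE (adjusted p = 1.2e-05), and Pck1, an enzyme of gluconeogenesis, fell by 4.59 ± 0.41 SE (adjusted p = 2.1e-05). Wee1, a kinase that holds back mitosis, rose by 0.82 ± 0.08 SE (adjusted p = 2.7e-05), while between mice its deviations ran with Dbp (0.816), which was lower in tumors. Cdkn1a, the cell cycle inhibitor p21, rose by 1.86 ± 0.21 SE (adjusted p = 7.9e-05). In distant against FVB-WT livers 2 rose and 1 fell (median 0.48), against 5.06% of all probe sets called. These were Pck1 (1.19 ± 0.11 SE, adjusted p = 5.6e-06) and Tfrc, the transferrin receptor (1.04 ± 0.15 SE, adjusted p = 0.00027), and Elovl3, a fatty acid elongase, which fell by 3.17 ± 0.86 SE (adjusted p = 0.040). In TRE-MET against LAP-tTA livers 1 rose and 4 fell (median -0.22), against 6.86% of all probe sets called. Tfrc (-0.80, adjusted p = 0.0037), Cyp2a5, a cytochrome P450 (-2.14, adjusted p = 0.0044), and Alas1, which starts heme synthesis (-1.17, adjusted p = 0.015), fell and Elovl3 (0.68, adjusted p = 0.016) rose.

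Outside these lists, the genes whose deviations were most like those of Arntl over the 42 units were Lrfn3 (r = 0.921), Lgalsl (0.894), Insig2 (0.885), Denn2b (0.881) and Chka (0.866). Insig2 encodes a protein that restrains sterol synthesis and Chka a choline kinase. Most like Dbp were Gys2 (0.896), the liver glycogen synthase, Pcsk4 (0.883), Rab43 (0.881), Cpt1a (0.868), which admits fatty acids to mitochondria, and Rmnd5a (0.866). Most opposed to Dbp were Lgalsl (-0.930), Litaf (-0.922), Pnrc1 (-0.920), Tab2 (-0.869) and Denn2b (-0.863). These are correlations over units that share mice, given with no test. Groups with a wide spread weigh most in them too, TRE-MET livers for Dbp and FVB-WT livers for Arntl. In LAP-tTA livers alone, where Arntl and Dbp varied least, r to Dbp was 0.853 for Gys2, 0.466 for Lgalsl and 0.00051 for Rab43.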

How the data were processed

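Biotin-labelled cRNA of 49 mouse liver samples was hybridised to a custom Affymetrix array. The authors normalized the arrays by RMA and deposited linear intensities, which ran from 0.0169 to 143.6. Every array had a mean intensity of 1.000, while the log2 medians of the arrays ran from -3.42 to -3.20. The number of arrays limits the precision. The intensities were turned to log2 as they stood, and all 43681 probe sets were kept. Symbols came from the array's annotation, 6202 of them updated through RefSeq synonyms. No sample pair was identical (highest r 0.996).

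Differences were fitted with limma 3.58.1 (R 4.3.3, moderated and two-sided) on the samples of each comparison alone. Their p-values were adjusted by Benjamini-Hochberg across the whole array and called under 0.05. The fit was tested on simulated data. Both tumors of a mouse were averaged, and mouse was a block within mice. Same-numbered deviations correlated at 0.364 to 0.595 between adjacent and distant livers, 0.125 to 0.384 between tumors and distant livers and 0.0336 to 0.341 between tumors and adjacent livers. The pairing comes from the labels, which give the same mouse. Nothing in the labels gives a batch. Permutation tests used Python 3.11.15 with scipy 1.17.1, numpy 2.4.6 and pandas 2.3.3; plots used matplotlib 3.10.9. An r was left out where the largest gap between sorted values exceeded 50% of their range. The 10 genes, the gene lists and the tests were chosen with earlier results of these data known. All 10 genes were named, and up to 4 genes of each other list with the smallest p per comparison. Alternatives were a threshold of 0.01, brighter probe sets only, quantile or median scaling, all groups in a common fit, the block added or left out, 1 probe set per gene, the next brightest probe set, 1 tumor per mouse, each mouse left out, and the test of the study's methods (p under 0.01).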

Additional observations from a re-analysis of the deposited data

Results flagged for a closer look

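Of 50 groups of values tested, 3 had a sample far from the others, and chance flags about 1 in 20 groups. Clock in TRE-MET sample 7 was 0.90, below the other TRE-MET livers (1.09 to 1.21), with a gap of 0.602 of the group's range. Npas2 in distant liver 1 was -3.004, above the other distant livers (-3.50 to -3.33), with a gap of 0.660. Nr1d1 in FVB-WT sample 2 was 0.21, below the other FVB-WT livers (0.88 to 1.28), with a gap of 0.629. Without that sample the difference of Nr1d1 between distant and FVB-WT livers stayed called. Nr1d1 differed by -0.07 between TRE-MET and LAP-tTA livers and by -1.07 between distant and FVB-WT livers. The first signed difference less the second was 0.999 (limma, adjusted p = 0.011). Of the 4 group means, that of FVB-WT livers stood apart at 0.97. The means were -0.10 in distant, 0.02 in TRE-MET and 0.09 in LAP-tTA livers.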

How the results depend on the processing

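Calls among the 10 genes depended most on how the mice were treated in the fit. The 6 genes called between tumors and distant livers became 0 with no replicate block and 0 with all groups in a common fit. They became 0 by the methods' test too, unadjusted or after Benjamini-Hochberg. Under these 4 settings 27%, 29.5%, 23.7% and 14% of all probe sets were called, against 26.6% in the reported fit. The 4 genes called between tumors and adjacent livers became 0, 1, 0 and 0 under the same 4 settings. The shares of all probe sets were 36.2%, 38.4%, 29.1% and 15.9%, against 32.8% in the reported fit. Tissues of a mouse come from the same animal, so the fit with the block is the reported one. Between different mice the numbers mark only samples, and a replicate block by number left 1 call in adjacent against FVB-WT livers and changed no other call. Same-numbered deviations there correlated at -0.4 to 0.326.

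In TRE-MET against LAP-tTA livers the 1 call became 0 at an adjusted p under 0.01, over the brighter probe sets alone (mean at or above the median, a limit that removes Npas2 itself), with sample medians set equal and by the methods' test after Benjamini-Hochberg. In distant against FVB-WT livers 1 call became 2 over the brighter probe sets, with quantile normalization, with 1 probe set per gene and by the methods' test unadjusted. In adjacent against FVB-WT livers 2 calls became 1 at an adjusted p under 0.01, with quantile normalization, with sample medians set equal and by the methods' test unadjusted, and 0 by that test after Benjamini-Hochberg. In tumors against FVB-WT livers 2 calls became 1 at an adjusted p under 0.01, 0 by the methods' test after Benjamini-Hochberg and 4 at the next brightest probe sets. The cause of the other changes was not tested. At the next brightest probe set Per2 turned to -0.40 in tumors against FVB-WT livers and Per3 to 0.095 in tumors against distant livers.

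With each mouse left out in turn, calls ranged from 0 to 1 in TRE-MET against LAP-tTA, 1 to 4 in distant, 1 to 4 in adjacent and 2 to 3 in tumors against FVB-WT, 5 to 7 in tumors against distant, 3 to 4 in tumors against adjacent, 0 to 0 in adjacent against distant livers and 1 to 3 for the difference between ages. In the same fits 5.43% to 7.71% of all probe sets were called in TRE-MET against LAP-tTA. The shares against FVB-WT were 3.45% to 5.85% in distant, 4.58% to 8.94% in adjacent livers and 25% to 31.1% in tumors. They were 21.1% to 28.8% in tumors against distant and 22.4% to 30.2% in tumors against adjacent livers. For adjacent against distant livers they were 0% to 0.00458%, and for the difference between ages 6.72% to 8.68%. Reading tumor a alone turned 1 of 30 single-gene results to called, and tumor b alone turned 2 of 30 to not called. The number of mice, 7 a group, sets the width of the printed intervals.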
